A study of Mus musculus with 24 samples.

Results

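Antigen-specific CD4 T cells of the aggressive form of insulitis were compared between the pancreas and its draining lymph nodes. The arrays were chosen by their labels and number 4 of the 24 in the series. They are 2 of pancreatic T cells and 2 of T cells from pancreatic lymph nodes, all from mice of the background C57Bl/6-H2g7/g7 (B6g7) that carry the BDC2.5 T cell receptor genes. This receptor recognises an antigen of the pancreatic beta cell. Both sites were sorted for viable (Hoechst-negative), CD4+ cells high for the BDC2.5 clonotype, and the pancreatic cells also for CD45+. At each site the array numbered 1 was from mice of 25 days and the array numbered 2 from mice of 22 days, so a site difference can be read within each number. The labels name neither the number of mice per array nor what arrays of the same number share. The p-values therefore measure a spread between arrays only, which the fit estimates over the 10 groups of all 24 arrays. With number go age and any handling the arrays of 1 number had in common. The same 2 sites were measured in 6 arrays of BDC2.5 mice on the NOD background, the benign form, at 24, 24 and 25 days for the pancreas and 24, 22 and 25 days for the lymph node. No group lacks the BDC2.5 transgene in this comparison, and no T cells of another specificity were sorted at either site.

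Naive CD4 T cells meet islet antigen on dendritic cells in the pancreatic lymph node. Activated cells leave through the lymph under control of sphingosine-1-phosphate receptors, enter the islets through integrins and chemokine receptors, and meet antigen again there. Recent receptor signalling is followed by immediate early genes such as Egr1 and Nr4a1 and by Irf4, and type I interferon, released by infected or inflamed tissue, induces a shared set of antiviral genes. The comparison asks how the same clonotype differs between the site of priming and the site of attack.

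CD4 T cell markers were higher, and B cell, macrophage and NK cell markers lower, than in unsorted infiltrates, while the CD8 gene Cd8b1 was above its infiltrate level on all 4 arrays. The mean log2 intensity of 11 measured CD4 T cell markers was 8.67 and 8.40 in the pancreas. It was 8.64 and 8.41 in the lymph node and 7.58 in unsorted B6g7 infiltrates. The infiltrate group holds 3 arrays, from mice whose ages were not all those of the T cell arrays. The part of age in these differences was not tested. B cell markers (13 measured) lay between 5.16 and 5.34 on the 4 arrays and at 7.26 in the infiltrates. The 17 macrophage markers lay between 5.33 and 5.63, against 7.22, and the 10 NK cell markers between 4.46 and 4.62, against 6.45. The class II gene H2-Aa read 5.47 to 5.64 on the 4 arrays and 11.64 in the infiltrates. The mean of the CD8 genes Cd8a and Cd8b1 was 7.12 and 7.06 on the number 1 arrays and 6.30 and 6.37 on those of number 2, against 6.78 in the infiltrates. Cd8a read 5.52 to 6.02, against 6.88 in the infiltrates, and Cd8b1 8.46 and 7.09 in the pancreas against 8.10 and 6.86 in the lymph node and 6.67 in the infiltrates.

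Array number set the values more than site did. The spread (SD) of the log2 difference over 12422 probe sets was 0.27 between pancreas and lymph node in number 1 and 0.34 in number 2. Between numbers it was 0.66 for the pancreatic arrays and 0.63 for those of the lymph node. Taken as deviations from the site mean, arrays of 1 number correlated at 0.79 over probe sets, which describes 2 pairs only. Both number 1 arrays carried liver transcripts: the mean of 10 liver genes was 9.58 in pancreas number 1 and 8.92 in lymph node number 1, against 4.86 and 4.78 in number 2. Albumin (Alb) read 12.06 and 11.71 in number 1 and 4.57 and 4.41 in number 2. Pancreatic enzyme transcripts followed the same order, and the trypsinogen Prss2 read 9.21 and 8.46 in number 1 against 4.48 and 4.05 in number 2. The sort gates for neither tissue, and the values stand high on both sides of the site comparison. In the T cell arrays of NOD mice the liver mean was 11.27 in pancreas number 1, 6.02 in lymph node number 1 and 4.71 to 5.32 in the others.

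**Figure D1:**
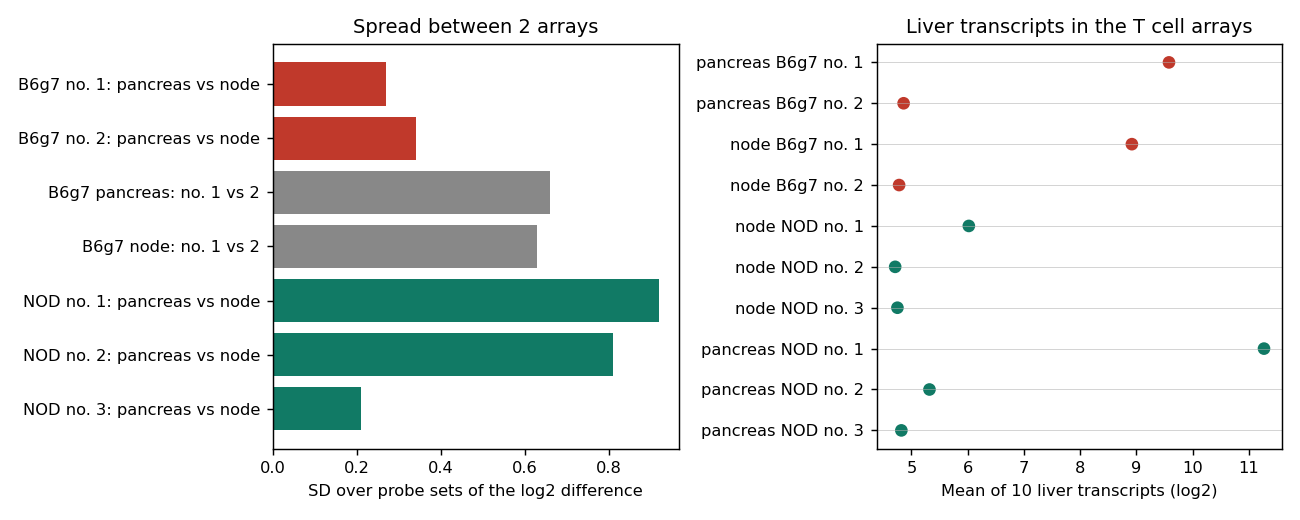
Left, the standard deviation over probe sets of the log2 difference between 2 arrays, as horizontal bars for 7 pairs of arrays. Right, the mean log2 intensity of 10 liver transcripts, 1 point for each T cell array. The B6g7 sites differ by 0.27 and 0.34 within a number while the numbers differ by 0.66 and 0.63 within a site, and both number 1 arrays of B6g7 stand high in liver transcripts.

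No probe set passed an adjusted p of 0.05 between the pancreas and the lymph node of B6g7 mice. This was 0 of 12422 (0.0%) in limma with Benjamini-Hochberg adjustment, with 81 probe sets (0.652%) at an unadjusted p under 0.05 and no adjusted p below 1. With the replicate number as a block the count was again 0, with 212 probe sets (1.71%) at an unadjusted p under 0.05. Both shares are below the share that a threshold of 0.05 would give with no difference anywhere. These 2 fits are thus conservative here, and a count of 0 does not show that the sites are alike. The fits with quantile normalization, array median centring, a trended prior or array weights gave 0 as well, with 94, 95, 80 and 46 probe sets at an unadjusted p under 0.05. Leaving out each of the 4 arrays in turn gave 0 passing. The counts at an unadjusted p under 0.05 were then 184 without pancreas number 1, 396 without pancreas number 2, 483 without lymph node number 1 and 64 without lymph node number 2. With 2 arrays a site the median half-width of the 95% interval was 0.53 on the log2 scale, a 1.44-fold difference, and 0.45 with the block. For the median probe set, a difference under 0.53 without the block does not reach an unadjusted p of 0.05. The adjusted p asks for a larger difference, and the size needed was not computed. A fit of these 4 arrays alone with the block passed 1 probe set, to which the platform annotation gives no gene, with 756 at an unadjusted p under 0.05. It was lower in the pancreas by 1.68 in number 1 and 2.34 in number 2 on the log2 scale (adjusted p = 0.00976). What follows are therefore values in each number, with no gene of them passing the test. For reading them, 34 transcripts of eye, brain, muscle, testis and pituitary give the level an absent transcript can reach: their 90th percentile was 6.36, and 3001 of 8251 genes exceeded it in the mean of at least 1 site. Differences are given on the log2 scale where an array lies under that level, since the size of such a difference is not settled.

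The 2 numbers gave different lists of genes. Over all probe sets the within-number differences of number 1 and number 2 correlated at 0.06, a description over probe sets of 2 pairs of arrays. Of 8251 genes, 2110 (25.6%) were higher in the pancreas in both numbers, 1921 (23.3%) lower in both, and 4220 differed in opposite directions. In number 1, 42 genes (0.509%) were at least 2-fold higher in the pancreas and 9 (0.109%) at least 2-fold lower. In number 2, 8 (0.097%) were at least 2-fold higher and 162 (1.96%) at least 2-fold lower. No gene (0.0%) was 2-fold higher in both numbers. The 2 genes (0.0242%) that were 2-fold lower in both were Pclaf, a PCNA-binding factor of DNA replication, and Dhx36, a helicase that unwinds G-quadruplexes. Pclaf read 4.27 and 5.29 in the pancreas against 5.39 and 6.37 in the lymph node. Dhx36 read 5.10 and 4.14 against 6.25 and 5.36. Both were under the level an absent transcript can reach in the means of both sites, and the other probe sets of Pclaf differed by 0.08 and 0.25 in the opposite direction.

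**Figure D2:**
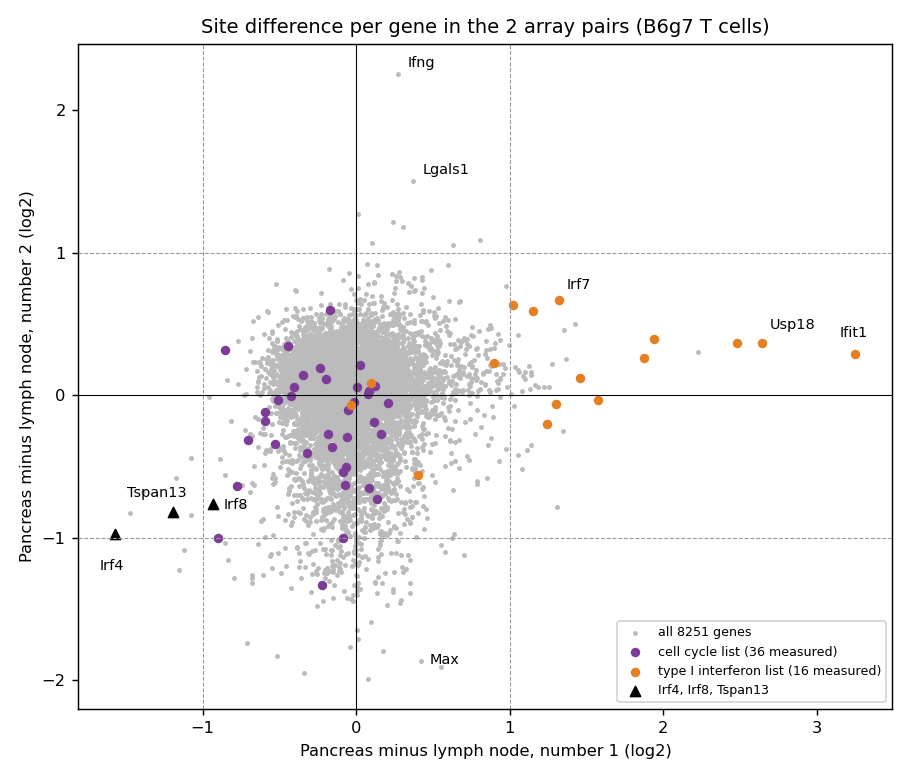
Each point is a gene, with its log2 difference between pancreas and lymph node in number 1 on the horizontal axis and in number 2 on the vertical axis. Dashed lines mark 2-fold. The type I interferon list extends to the right, to 3.25 for Ifit1, while its values in number 2 stay between -0.56 and 0.67, and Irf4, Irf8 and Tspan13 lie low in both numbers.

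Interferon-induced genes were the group with the most members among the higher genes of number 1. Of its 42 genes at least 2-fold higher in the pancreas, 12 are on the type I interferon list, on which 16 of 24 genes were measured, and 3 more are on the interferon-gamma list. The median difference of the type I list was 1.31 in number 1 and 0.25 in number 2, where the medians over all genes were -0.04 and 0.06. In number 1, 15 of the 16 were above 0, where 57.3% of all genes were below it. In number 2, 11 were above 0, where 59.6% of all genes were. For 8 of the 16 both pancreatic arrays lay above both lymph node arrays, as for 9.56% of all genes. None of the 16 passed the test. In number 2 the excess over the median of all genes was therefore small, and the size of the list's shift rests on number 1. Ifit1, which binds viral RNA that lacks cap methylation, read 8.08 and 5.65 in the pancreas against 4.83 and 5.36 in the lymph node. The differences were 3.25 in number 1 and 0.29 in number 2, with a mean of 1.77 ± 0.62 (SE of the fit of all 24 arrays). Pancreas number 1 stands alone for this gene, and the other 3 arrays lie under 6.36; without that array the difference was 0.56.

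The same array was highest for the other members with large differences. Usp18, the deubiquitinase that removes ISG15 and damps interferon receptor signalling, read 8.74 and 7.46 in the pancreas against 6.10 and 7.10 in the lymph node. Its mean difference was 1.50 ± 0.55, and 0.86 without pancreas number 1. Irf7, the transcription factor that amplifies interferon production, read 7.16 and 6.82 against 5.84 and 6.15. Irf7 was the member whose number 2 difference was largest, 0.67 against 1.32 in number 1, with a mean of 0.99 ± 0.35. Its other probe set gave 0.59. Ifit2, a relative of Ifit1, read 7.05 and 5.90 against 5.18 and 5.63. Ifi35, an interferon-induced leucine zipper protein, read 8.55 and 7.88 against 7.53 and 7.24, so that both pancreatic arrays were higher by similar amounts, 2.03-fold and 1.55-fold. Ifit3 and the antiviral GTPase Mx1 were higher by 2.48 and 1.94 in number 1 and by 0.36 and 0.39 in number 2, with all site means under 6.36.

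For the members that follow, apart from Ifitm3, the pancreas was higher in number 1 alone, or in neither number. Isg15, the ubiquitin-like modifier, read 7.51 and 7.04 in the pancreas against 6.27 and 7.24 in the lymph node. Ifih1, a cytosolic sensor of double-stranded RNA, read 7.89 and 6.44 against 6.31 and 6.48. In both genes the sites overlapped and number 2 showed no excess in the pancreas. Irf9, of the interferon regulatory factor family, read 9.01 and 8.99 against 8.61 and 9.55, and Ifi27 differed by -0.03 and -0.07. Ifitm3, which restricts virus entry, was higher in the pancreas by 1.15 and 0.59, yet it read 7.93 and 6.78 in number 1 against 6.08 and 5.49 in number 2, the same order as the liver transcripts. The liver mean was also higher in pancreas number 1 than in lymph node number 1, by 9.58 to 8.92. A fit with that mean as a covariate gave 1.72 for Ifit1 and 1.48 for Usp18. The slope of that covariate was shared with the NOD arrays, among them pancreas number 1 with a liver mean of 11.27. The fit therefore does not measure what the liver transcripts add in B6g7 pancreas number 1. Their part in the interferon values was not tested.

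**Figure D3:**
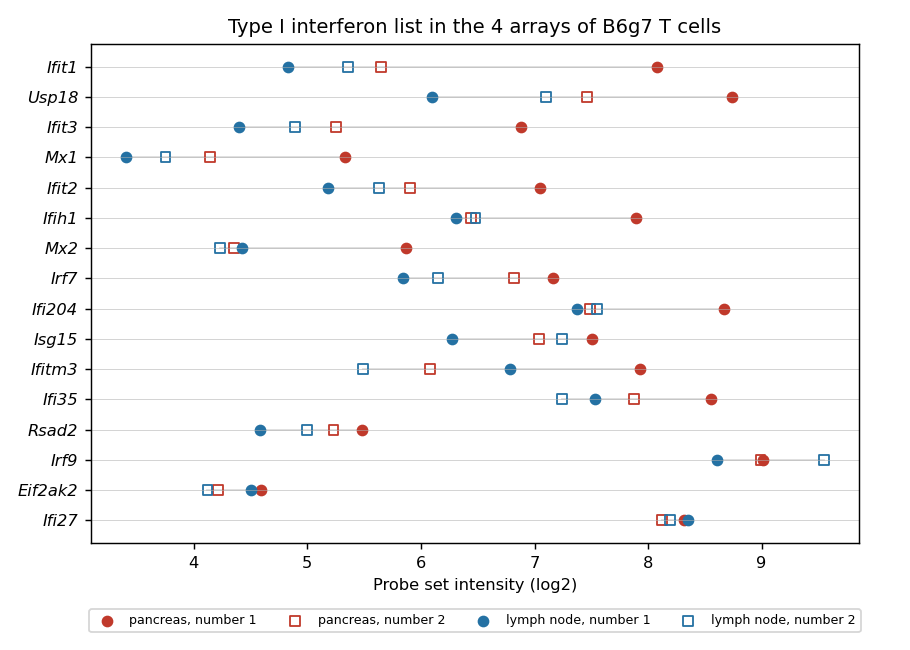
Log2 intensity of the 16 measured genes of the type I interferon list in the 4 arrays of B6g7 T cells, ordered by the difference in number 1. Filled circles are number 1, open squares number 2, red the pancreas and blue the lymph node. For Ifit1 pancreas number 1 reads 8.08 and the other 3 arrays lie between 4.83 and 5.65.

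Promoters of 3 members are shown for a motif known from promoters of interferon-induced genes, since the members were high together in number 1. Each is the 250 bases before the start of transcription, from RefSeq on GRCm38.p6, read 5′ to 3′ on the strand of the gene, with the letters GAAANNGAAA or their reverse complement TTTCNNTTTC in capitals. Ifit1 (chr19:34640639-34640888, plus strand) was higher by 3.25 in number 1, Isg15 (chr4:156200819-156201068, minus strand) by 1.24, and Irf7 (chr7:141266425-141266674, minus strand) by 1.32.
Ifit1: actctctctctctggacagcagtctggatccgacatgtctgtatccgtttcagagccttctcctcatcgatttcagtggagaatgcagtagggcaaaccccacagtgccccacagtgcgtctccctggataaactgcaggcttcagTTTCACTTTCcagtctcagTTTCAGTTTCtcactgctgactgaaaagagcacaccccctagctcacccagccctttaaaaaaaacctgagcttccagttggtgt
Isg15: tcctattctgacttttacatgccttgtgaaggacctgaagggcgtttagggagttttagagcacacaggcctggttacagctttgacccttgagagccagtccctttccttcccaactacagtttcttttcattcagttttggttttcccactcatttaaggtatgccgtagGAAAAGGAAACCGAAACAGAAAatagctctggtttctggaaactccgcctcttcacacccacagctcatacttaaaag
Irf7: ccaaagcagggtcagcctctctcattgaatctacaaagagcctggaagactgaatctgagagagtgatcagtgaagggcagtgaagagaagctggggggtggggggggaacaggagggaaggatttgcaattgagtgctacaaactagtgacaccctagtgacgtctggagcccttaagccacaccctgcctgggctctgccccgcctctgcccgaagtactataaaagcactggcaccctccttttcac
The Ifit1 window holds 2 matches and the Isg15 window 3 that overlap one another, and the Irf7 window holds 0. Among the 32851 windows of this length 978 (2.98%) hold a match on either strand. Windows were found for 11 of the 16 measured members, and those of 4 (Ifit1, Ifit3, Isg15 and Rsad2) hold a match. A match is a description of the letters and not evidence of binding.

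Further interferon-induced genes outside that list were higher in the pancreas too, chosen by smallest p, by the interferon-gamma list or, for Isg20, after its values were seen, and pancreas number 1 did not stand apart in all of them. Trafd1, a zinc finger regulator of innate signalling, read 8.26 and 7.30 in the pancreas against 6.83 and 6.80 in the lymph node, a mean difference of 0.96 ± 0.35. Isg20, an RNA exonuclease, read 9.05 and 7.02 against 6.83 and 6.72. Cmtr1, the cap methyltransferase, read 7.18 and 7.19 against 6.52 and 6.85, so its 2 pancreatic arrays were alike and both above the lymph node. Of the interferon-gamma list, 18 of 23 genes were measured, with a median difference of 0.36 in number 1 and -0.02 in number 2. Igtp, an immunity-related GTPase, read 8.34 and 8.68 against 6.99 and 8.22. The guanylate-binding protein Gbp2 was higher by 1.16 in number 1 and 0.07 in number 2, and the GTPase Irgm2 by 1.22 and 0.06. For these genes lymph node number 1 was the lowest of the 4 arrays. The gene 2510002D24Rik, for which no role is given here, completes the 8 higher genes of smallest p and read 7.75 and 7.72 against 7.31 and 6.96.

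The remaining genes that were 2-fold higher in pancreas number 1 included products of other tissues. Serum proteins made in the liver were among them: Serpinc1 (antithrombin) was higher by 1.26, Serpinf2 by 1.14, Ahsg by 1.10 and F2 (prothrombin) by 1.02. Ahsg read 8.06 in pancreas number 1, 6.96 in lymph node number 1 and 4.55 and 4.39 in number 2. The acinar gene Sycn was higher by 1.13, the amylase Amy1, which is not on the acinar list, by 1.05, and the globin Hba-a1 by 1.08. Sycn and Amy1 lay under 6.36 on all 4 arrays. Against 25.6% of all genes, 15 of 19 measured acinar and duct genes were above 0 in both numbers, with medians of 0.46 and 0.15. These genes are chosen here after their values were seen.

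In NOD mice most type I interferon genes had a mean site difference below 0. The median site difference of the type I list in NOD was -0.58, against 0.06 over all genes. Of its 16 members 1 was above 0, where 58.3% of all genes were. In all 3 NOD numbers 7 members were below 0, and the share over all genes was not computed. Ifit1 differed by -0.35, -1.81 and 0.22 in the 3 NOD numbers, and Igtp by -1.24, -2.11 and -0.33. With the replicate block 698 of 12422 probe sets (5.62%) passed in NOD. Among them Igtp was lower in the pancreas (limma, adjusted p = 0.0402), as were the type I members Ifi204 and Irf9 (adjusted p = 0.0479 and 0.0455). In NOD number 2 the block joins a pancreatic array of 24 days with a lymph node array of 22 days. Without the block only 2 probe sets (0.0161%) passed in NOD, both lower in the pancreas, and none of these genes. The exception was Ifitm3, at 4.17 in NOD number 1 and 0.14 and 0.02 in the others. The gap between the 3′ and 5′ probe sets of Gapdh was 3.91 and 4.87 in NOD pancreas numbers 1 and 2. It was 2.93 and 3.09 in their lymph node arrays, and the liver mean of pancreas number 1 was 11.27. Their part in these values was not tested. The difference between backgrounds was tested as an interaction. It passed for 0 of 12422 probe sets (0.0%) in limma, with 351 (2.83%) at an unadjusted p under 0.05 and a lowest adjusted p of 0.832. With the block it was 0 again, with 656 (5.28%) and 0.841. So the site difference of these genes was not shown to differ between B6g7 and NOD.

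**Figure D4:**
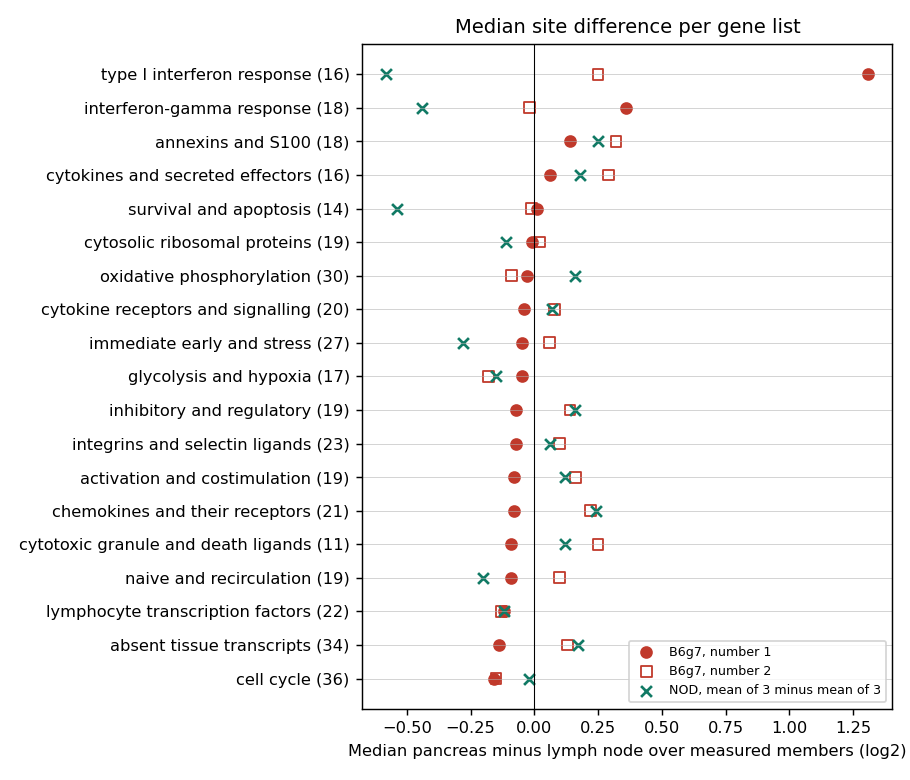
Median log2 difference between pancreas and lymph node over the measured members of 19 gene lists, with the number measured in parentheses. Red circles and squares are numbers 1 and 2 of B6g7, and green crosses are NOD (mean of 3 arrays minus mean of 3). The type I interferon list lies at 1.31, 0.25 and -0.58, and the list of absent tissue transcripts at -0.14, 0.13 and 0.17.

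Lymphocyte transcription factors were among the genes lower in the pancreas in both numbers. Of 22 measured factors 13 were below 0 in both numbers, with a median difference of -0.16, where 23.3% of all genes were below 0 in both and the median was 0. None passed the test. Irf4, a factor induced by T cell receptor signalling in proportion to its strength, read 5.91 and 6.74 in the pancreas against 7.47 and 7.71 in the lymph node. The differences were -1.57 in number 1 and -0.97 in number 2, with a mean of -1.27 ± 0.43. Irf8, a relative of Irf4, read 6.24 and 6.45 against 7.17 and 7.21, a mean difference of -0.85 ± 0.33. In Irf4 and Irf8 both pancreatic arrays lay below both lymph node arrays, as for 7.5% of all genes. Both genes were chosen by smallest p with both numbers of 1 sign, which favours such a lack of overlap. Leaving out any 1 array, a reading of the same values, kept the differences between -0.85 and -1.69 for Irf4. For Irf8 they stayed between -0.75 and -0.96. Irf8 is also expressed by macrophages and B cells and read 8.67 in the infiltrates. Over the B cell list of 13 genes the 4 arrays ranged from 5.16 to 5.34. Without overlap 2 members were lower and 3 higher in the pancreas, against 7.5% and 9.56% of all genes. Among the lower ones Pou2af1 read 3.76 and 4.16 in the pancreas against 4.45 and 5.48 in the lymph node. The part of such cells in the Irf8 values was not tested. The factor Myb read 5.58 and 6.93 against 7.05 and 7.75, and its second probe set differed by 0.04. Eomes, a T-box factor of effector and memory cells, was lower by 1.08 and 0.44 under the level of absent transcripts. Id2, an inhibitor of E proteins that sustains effector cells, went the other way and read 7.48 and 7.09 against 6.68 and 6.00, with a mean difference of 0.95 ± 0.50.

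Immediate early genes of receptor signalling were lower in the pancreas in both numbers for several members and not for the list. Of 27 measured genes 9 were below 0 in both numbers and 7 above 0 in both, against 23.3% and 25.6% of all genes. The list median was -0.08. Nr4a1, an orphan nuclear receptor that tracks recent receptor signalling, read 6.95 and 7.27 in the pancreas against 7.69 and 7.89 in the lymph node, a mean difference of -0.68 ± 0.41. Egr1, a zinc finger factor, read 6.89 and 7.99 against 7.75 and 9.02; its sites overlapped because number 2 was higher at both, and its other probe set differed by -0.06. Egr2, which restrains T cell activation, was lower by 0.89 and 0.44, and Fos by 0.89 and 1.01 with both site means under 6.36. The phosphatase Dusp1 was lower by 0.69 and 0.68, also under 6.36. Fosl2, Gadd45g and Atf3 were higher in both numbers, by 0.07 to 0.56.

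Other genes lower in the pancreas have roles apart from transcription. Tspan13, a tetraspanin of the plasma membrane, had the smallest p of the 16 genes named for the site and read 6.08 and 5.63 against 7.27 and 6.45, a mean difference of -1.01 ± 0.28. It was lower in all 3 NOD numbers too, by 0.86, 0.80 and 0.66, and passed there with the block (limma, adjusted p = 0.0371). With the block 5.62% of all probe sets passed in NOD, and without it 2 of 12422 did. Number 2 of that block joins arrays of 24 and 22 days. Rnf19a, a ubiquitin ligase, read 7.15 and 7.19 against 7.71 and 8.31. Strap, which binds mRNA and the receptor of TGF-beta, read 5.99 and 6.03 against 6.29 and 6.59. Tomm70a, an import receptor of the mitochondrial outer membrane, read 7.60 and 7.53 against 7.90 and 8.91, and its other probe set differed by -0.12. Hikeshi, the nuclear importer of Hsp70, read 6.78 and 6.83 against 6.90 and 8.03, and Hspb11, a component of intraflagellar transport, 6.71 and 6.63 against 6.87 and 7.23. In these last 5 genes the pancreatic arrays were alike and lymph node number 2 was the highest array, so most of each difference came from number 2. All 9 genes that were 2-fold lower in number 1 were also below 0 in number 2, where 59.6% of all genes were above it. Besides those named they are Cd83, Tnfsf11 and Ncl. Of the 42 genes that were 2-fold higher in number 1, 32 were above 0 in number 2.

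Cell cycle genes leaned the same way by smaller amounts. Of 36 measured genes 19 were below 0 in both numbers and 5 above 0 in both, against 23.3% and 25.6% of all genes. Their medians were -0.16 and -0.15 in numbers 1 and 2. Stmn1, which destabilises microtubules in dividing cells, read 7.03 and 7.49 in the pancreas against 7.93 and 8.50 in the lymph node, and its other probe set differed by -0.04. Mcm4, a subunit of the replicative helicase, read 5.84 and 6.07 against 6.06 and 7.39. Mcm3, another subunit of it, read 6.60 and 6.92 against 7.31 and 7.23. Mki67, the proliferation marker, was lower by 0.78 and 0.63 with all values under 6.36, and Ccnb2, a mitotic cyclin, was lower by 0.85 in number 1 and higher by 0.32 in number 2. None of the 36 passed the test. The transcripts taken as absent had medians of -0.14 and 0.13 in the 2 numbers, so the shift of the list in number 1 is close to theirs.

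Annexin and S100 genes were higher in the pancreas in both numbers for most measured members. On the annexin and S100 list 13 of 18 measured genes were above 0 in both numbers, against 25.6% of all genes, with medians of 0.14 and 0.32. S100a4, a calcium-binding protein of motile and memory T cells, read 6.19 and 6.36 against 5.60 and 5.44, a mean difference of 0.75 ± 0.35 with no overlap. S100a6, its relative, read 6.17 and 6.93 against 5.02 and 6.33. Lgals1, a galectin, read 9.54 and 8.83 against 9.17 and 7.33. The difference of Lgals1 was 1.29-fold in number 1 and 2.84-fold in number 2, where the low value of lymph node number 2 sets it. Crip1, a LIM protein, was higher by 0.60 and 0.53. The lists of integrins, chemokines and cytotoxic genes had medians of -0.07, -0.08 and -0.09 in number 1 and of 0.10, 0.22 and 0.25 in number 2. In NOD, S100a6 and Lgals1 were higher in all 3 numbers and passed with the block (limma, adjusted p = 0.0414 and 0.0383), and not without it.

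Cytokine and cytotoxic genes were near or under the level of absent transcripts at both sites. Of 16 measured cytokine genes 11 were above 0 in both numbers, against 25.6% of all genes. A site mean above 6.36 was reached by 4, and the list medians were 0.06 and 0.29. Ifng, the effector cytokine of type 1 helper cells, read 3.77 and 5.52 in the pancreas against 3.50 and 3.27 in the lymph node. Its differences were 0.27 and 2.25. All 4 arrays were under 6.36, pancreas number 2 alone stood apart from the others, and without that array the difference was 0.39. Ccl5, a chemokine of effector cells, read 5.54 and 8.27 against 5.31 and 7.06, so number 2 was higher at both sites. Gzmb, the granzyme, read 5.92 and 6.52 against 5.25 and 5.86, higher by 0.67 and 0.66. In NOD mice Ccl5 and Gzmb were higher in the pancreas in all 3 numbers and passed with the block (adjusted p = 0.0256 and 0.0450 in limma), where 5.62% of all probe sets passed, and not without it. All 8 genes that were 2-fold higher in number 2 were above 0 in number 1, where 57.3% of all genes were below it. Besides Ifng and Ccl5 they are Id2, Lgals1, Lsp1, Rrbp1, Gpsm3 and Plac8.

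A panel of 38 T cell genes was read whatever its values. Of the 31 measured 0 passed the test in limma. In both numbers 11 were above 0 and 10 below 0, against 25.6% and 23.3% of all genes. The panel median was 0.08. Klf2, which keeps up the receptors for lymph node entry and exit, read 7.70 and 7.97 in the pancreas against 7.52 and 7.33 in the lymph node. Its target S1pr1, the exit receptor, read 4.53 and 5.20 against 4.63 and 5.15, and Ccr7, the homing receptor, 5.55 and 5.42 against 5.64 and 5.23, all under 6.36 and overlapping. The receptor Il7r read 7.97 and 8.53 against 7.12 and 8.27. Among activation and inhibitory receptors Tnfrsf4 was higher by 0.24 and 0.39, Icos lower by 0.34 and 0.73 and Ctla4 lower by 0.82 and 0.18, the latter 2 under 6.36. The integrin Itgb1 read 8.55 and 8.72 against 8.96 and 9.30, without overlap. Itgb7, an integrin outside the panel, read 8.91 and 8.98 against 8.53 and 8.16, in the opposite direction and also without overlap. The factor Gata3 differed by -0.05 and -0.11, and Il2, Il4, Il10 and Il2ra by no more than 0.35 in either number.

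**Figure D5:**
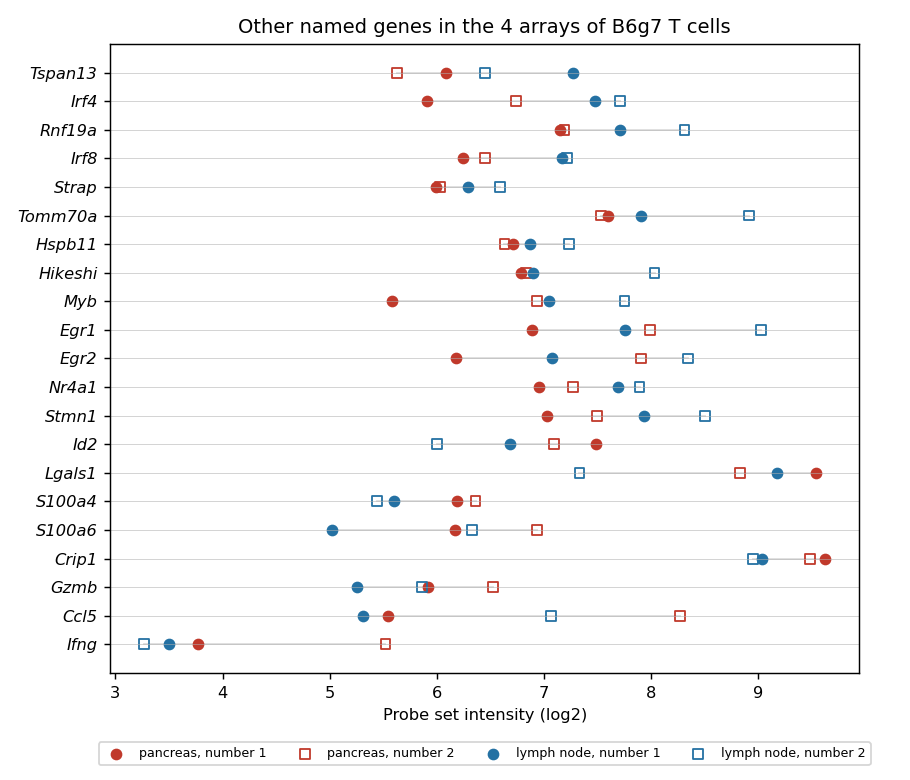
Log2 intensity of 21 named genes in the 4 arrays of B6g7 T cells; filled circles are number 1, open squares number 2, red the pancreas and blue the lymph node. Irf4, Irf8, Tspan13 and Nr4a1 read lower at both pancreatic arrays than at both lymph node arrays, and Ifng stands high in pancreas number 2 alone.

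The 162 genes that were 2-fold lower in the pancreas of number 2 are described next. Lymph node number 2 was the highest of the 4 arrays for 157 of the 162, which their choice fixes in large part. Their median difference in number 1 was -0.09, and 103 of the 162 were below 0 there, where 57.3% of all genes were. Max, the partner of Myc, read 7.75 and 7.58 in the pancreas against 7.33 and 9.45 in the lymph node. Cct8, a chaperonin subunit, read 5.34 and 5.81 against 5.26 and 7.79, and Cab39, a scaffold of the kinase LKB1, 6.28 and 6.02 against 6.10 and 7.81. Xist, the RNA that coats the inactive X chromosome, read 6.64 and 5.38 against 6.09 and 7.29. In each of these 4 genes lymph node number 2 stood above the other 3 arrays. Of the 162, 9 (5.56%) are on a list of function used here, as are 364 (4.41%) of all genes, so no theme is named for them. The same array had the smallest gap between the 3′ and 5′ probe sets of Gapdh, 2.83 on the log2 scale against 3.63 to 3.84 on the other 3, and of actin, 2.05 against 2.93 to 3.80. These gaps measure how far the amplified RNA reaches from its 3′ end, and their part in the 162 genes was not tested.

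The same 162 genes were compared with NOD, whose arrays had no part in their choice. The NOD site difference was below 0 for 155 of the 162, with a median of -1.06, where 41.7% of all genes were below 0. The Gapdh gap in NOD was 3.91, 4.87 and 2.78 on the pancreatic arrays and 2.93, 3.09 and 3.12 on those of the lymph node. NOD numbers 1 and 2, with the larger gap in the pancreas, had SDs between sites of 0.92 and 0.81, and number 3 had 0.21. The part of these gaps in the NOD differences was not tested.

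The interaction genes of smallest p are given as values, since none passed. BC147527, whose probe set is of the kind that similar transcripts share and is uncertain for that reason, differed by 0.61 and -0.07 between B6g7 sites and by -1.73, -1.63 and -0.60 in NOD. Igtp differed by 1.35 and 0.46 against the NOD values above, an interaction of 2.13 ± 0.55. Irf8 differed by -0.94 and -0.77 against 0.27, 1.41 and 0.23 in NOD, an interaction of -1.49 ± 0.43. In Igtp both B6g7 numbers were above 0 and all 3 NOD numbers below, as for 205 of 8251 genes (2.48%), and in Irf8 the reverse held, as for 184 (2.23%). The choice of Igtp and Irf8 by smallest interaction p favours such opposite signs. Ezh1, a Polycomb methyltransferase, and Maf1, a repressor of RNA polymerase III, differed by 0.01 and 0.21 and by 0.31 and 0.54 in B6g7, and were below 0 in all 3 NOD numbers. Gstm3, a glutathione transferase, differed by -0.38 and 0.02 in B6g7 and by 0.90, 0.69 and 0.24 in NOD. The remaining genes of smallest p, Scg5, Nefh, Foxa1 and Myh7, had all 4 B6g7 arrays under 6.36, and their interactions were 0.87, -0.71, -0.80 and -0.61. Irf4 was lower in the pancreas in both B6g7 numbers and differed by -1.01, -2.34 and 0.30 in NOD, an interaction of -0.25 ± 0.55.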

How the data were processed

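RNA of the 4 arrays was amplified in 2 rounds, per the labels' protocols. The authors deposited linear probe set intensity for 24 arrays. The submitters' processing notes name RMA for 11 arrays and for none of these 4, whose processing was not given in the sources used here. Median intensity per array ran from 35.1 to 39.1, and log2 was taken with no pseudocount. Of 12488 probe sets 66 controls were left out and 12422 tested. Gene names came from the platform's annotation, brought up to date through RefSeq. Each of 8251 genes was read from its brightest probe set on average.

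Means of 10 groups were fitted to all 24 arrays with limma 3.58.1 in R 4.3.3 (14 residual degrees of freedom, Benjamini-Hochberg adjustment over all probe sets, two-sided). SE is that of the moderated fit. The alternative with the replicate number as a block was used beside it, since same-numbered B6g7 arrays deviate together (0.79 over 2 pairs). The labels do not say what numbers share. For NOD no such correlation was computed, and its number 2 joins a pancreatic array of 24 days with a lymph node array of 22 days. As no gene passed, the rule named the 8 genes of smallest p in each direction with both numbers of 1 sign and a site mean above 6.36, a panel, list members of smallest p and 5 interaction genes in each direction. The members and lists were chosen with earlier results of these data known. The 2-fold rule within numbers was added after no probe set passed.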

Additional observations from a re-analysis of the deposited data

How the results depend on the processing

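The count of 0 for the B6g7 site effect held under all alternatives run except the 4 arrays alone with the replicate block (added after seeing the data), which passed 1. Leaving out each of the 4 arrays in turn gave 0 each time. The interaction was 0 except without NOD lymph node number 3, where BC147527 passed (adjusted p = 0.0282 in limma), a range of 0 to 1. The NOD count of 2 depends on the setting: 4 with array median centring, 4 with a trended robust prior, 1 without the 40% dimmest probe sets, and 0 each with T cell arrays alone, array weights or a liver covariate, but 698 with the replicate block. Leaving out 1 NOD array gave 0 to 1849, with 36 without lymph node number 3 and 1849 without pancreas number 3. At the 75th percentile the level of absent transcripts is 5.64. The liver covariate and leaving out both number 1 arrays were chosen after seeing the data; the latter left 0 for the site effect. Of 743 values of 47 named and panel genes under alternatives, 67 moved by over 1 SD of the within-number differences, 29 changed sign and 0 passed. The cause was not tested. With 2 arrays a site, the number of arrays limits the precision. The B6g7 count at an unadjusted p under 0.05 also depended on the fit. It was 81 in the main fit and 756 in the 4 arrays alone with the block. In the fit of all 24 arrays the replicate block changed no call in B6g7.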
